A study of Mus musculus with 12 samples.

Results

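The high-fat diet (HFD) group was compared with the normal diet (ND) group in epididymal white adipose tissue (eWAT), the visceral fat pad beside the testis and epididymis of male mice. The comparison used 6 of the 12 RNA-seq libraries of the series, 3 in each group, and every gene whose FPKM averaged 1 or more across them. FPKM counts fragments relative to transcript length and library depth. Of 23474 genes in the table, 14430 met this minimum over the 6 libraries and 13661 met it over the 5 libraries other than ND 1.

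All mice were male C57BL/6J mice that were housed individually, ate chow for a week and entered their diet group at 5 weeks of age. They stayed on the normal diet or the high-fat diet for 12 weeks and were 17 weeks old at sampling, and neither group carried an allele or received an agent. The other 6 libraries came from mice whose high-fat diet held a green tea extract or the herbal medicine Taeeumjowuitang. The methods describe RNA from 3 randomly selected mice of the HFD group and do not describe how ND mice were sampled, and the labels name no pooling and no batch. The libraries held approximately 10.3M, 15.8M and 13.4M fragments (ND 1 to 3) and 17.1M, 18.2M and 15.1M fragments (HFD 1 to 3), as estimated from the steps between low FPKM values.

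White adipocytes store triglyceride, release fatty acids and secrete hormones such as leptin, adiponectin and adipsin. In an enlarging fat pad, macrophages gather around lipid-laden or dying adipocytes, take up and digest their lipid in lysosomes, and express a set of genes known as the lipid-associated macrophage program. Fibroblast-like stromal cells build the collagen matrix around the adipocytes.

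The ND 1 library stood apart from the others. The summed FPKM of 20 germ cell genes was 109660 in ND 1, 248 in ND 2 and 3816 in ND 3, against 2503, 113 and 99.6 in HFD 1 to 3. The summed FPKM of 15 epididymis genes was 23463 in ND 1 and 13.7 and 85.3 in ND 2 and ND 3, against 35.9, 1306 and 1.58 in the HFD libraries. Genes of the testis and epididymis were thus highest in ND 1, and some of them were also raised in ND 3, HFD 1 and HFD 2. The 25 adipocyte genes summed to 8941 FPKM in ND 1, 64354 and 43359 in ND 2 and ND 3, and 27774, 27130 and 25338 in the HFD libraries. Over the genes tested with 6 libraries, ND 1 correlated with the other libraries at a Spearman's rho of 0.22 to 0.522, ND 2 and ND 3 at 0.861, and the HFD libraries with each other at 0.923 to 0.973. ND 2 correlated with the HFD libraries at 0.884 to 0.907, above its value with ND 3, and ND 3 with them at 0.764 to 0.864. Genes are therefore described against ND 2 and ND 3, and those that were also called with ND 1 included are named. A gene is written as having risen or fallen where it was called without ND 1, kept its direction with ND 1, and had both ND 2 and ND 3 on the same side of all 3 HFD libraries.

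**Figure D1:**
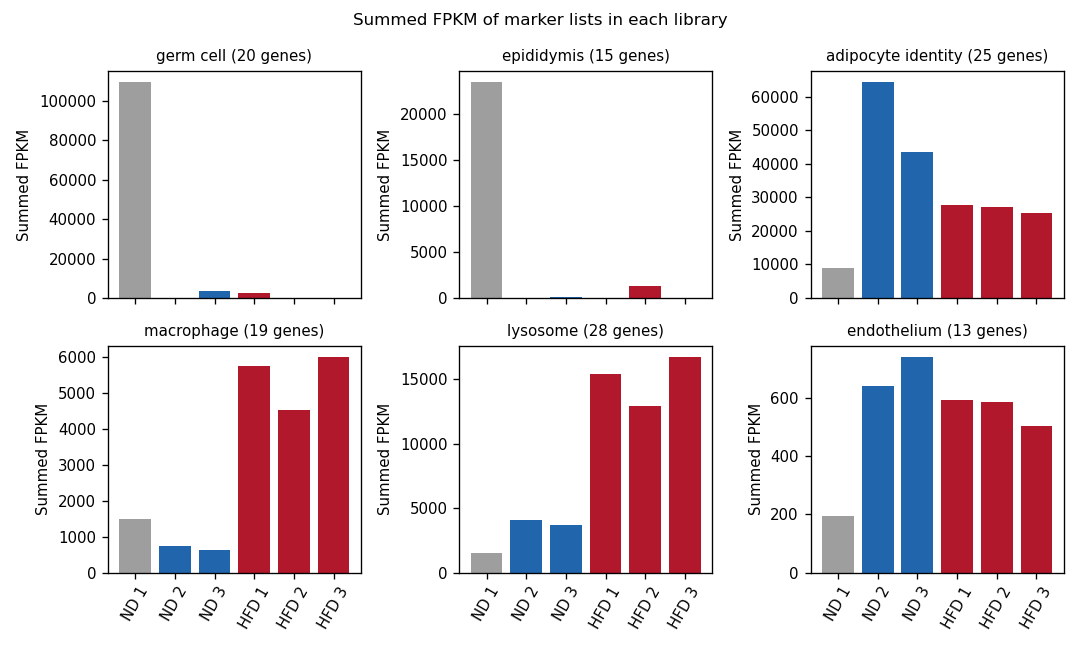
Summed FPKM (linear axes from 0) of 6 marker lists in each library, with ND 1 in grey, ND 2 and ND 3 in blue and HFD 1 to 3 in red. The germ cell and epididymis lists are highest in ND 1, the adipocyte list is lowest in ND 1 and highest in ND 2, and the macrophage and lysosome lists are higher in each HFD library than in any ND library.

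With ND 1 left out, 1505 genes were upregulated and 593 downregulated in the HFD group (limma on log2(FPKM + 1), Benjamini-Hochberg adjusted p-value under 0.05 and fold change of at least 1.5), which were 11% and 4.34% of the genes tested. With all 6 libraries 249 genes were upregulated and 6 downregulated, or 1.73% and 0.0416%, and all of these were also called without ND 1. Of the genes called without ND 1, 1489 rose (10.9%) and 445 fell (3.26%), because 16 of the upregulated and 148 of the downregulated genes changed sign when ND 1 was added. Of the genes tested with 6 libraries, 20.5% had all HFD libraries above all ND libraries and 5.89% had all of them below. Among those that rose, 1036 changed at least 2-fold, 361 at least 4-fold and 117 at least 8-fold. Among those that fell, 268 changed at least 2-fold, 35 at least 4-fold and 6 at least 8-fold. An alternative fit assumed that the replicate numbers pair the libraries. With the number as a block, 435 of the 13661 genes tested were called higher and 66 lower without ND 1. With all 6 libraries 0 were called (2239 at an unadjusted p under 0.05). Without ND 1, HFD 1 had no same-numbered partner, so the block fit compared only HFD 2 and HFD 3 with ND 2 and ND 3. Its fold changes are those of leaving out HFD 1, so these settings are not separate checks. Calls lost under it do not show an effect of pairing. List counts below stand against the 10.9% that rose and 3.26% that fell. Of the 114 genes given with a log2 fold change below, 36 that were called without ND 1 were not called with the block (limma adjusted p = 0.0503 to 0.378), and none of them changed sign under it. They were Adipoq, Akt1, Akt2, Bgn, Car3, Ccl6, Ccna2, Cd248, Cd74, Col6a3, Cpt1a, Ctsb, Ctsd, Dgat2, Fgf13, Folr2, Gpd1, Hp, Hspa5, Insr, Lamp1, Lipe, Mitf, Mki67, Otop1, Pccb, Plin1, Pnpla2, Psap, Ptpn1, Rbp4, Scd1, Sfrp5, Tfeb, Tnf and Upk3b. Of the 114 genes, 91 were called without ND 1 and 29 of these also with ND 1 included. Since ND 1 held the largest germ cell and epididymis sums, a call with it included is not added support for a change in fat. Those 29 were Adam8, Agt, Asns, Atf3, Atp6v0d2, Ccna2, Cd68, Cfd, Ctss, Dhcr7, F7, Gpnmb, Gsta4, H2-DMb1, Il1rn, Il7r, Itgax, Mki67, Mmp12, Otop1, Rgs1, Saa3, Scd2, Slc37a2, Timp1, Tlr13, Tm4sf19, Trem2 and Tyrobp. Of the genes that rose 122 had a mean under 1 FPKM in ND 2 and ND 3, and of those that fell 17 had one under 1 FPKM in the HFD group, so they met the minimum through the other group. Log2 fold changes below are on the log2(FPKM + 1) scale, HFD against ND 2 and ND 3, with their SE, and adjusted p-values are those of limma over all genes tested. Plain folds are ratios of mean FPKM.

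**Figure D2:**
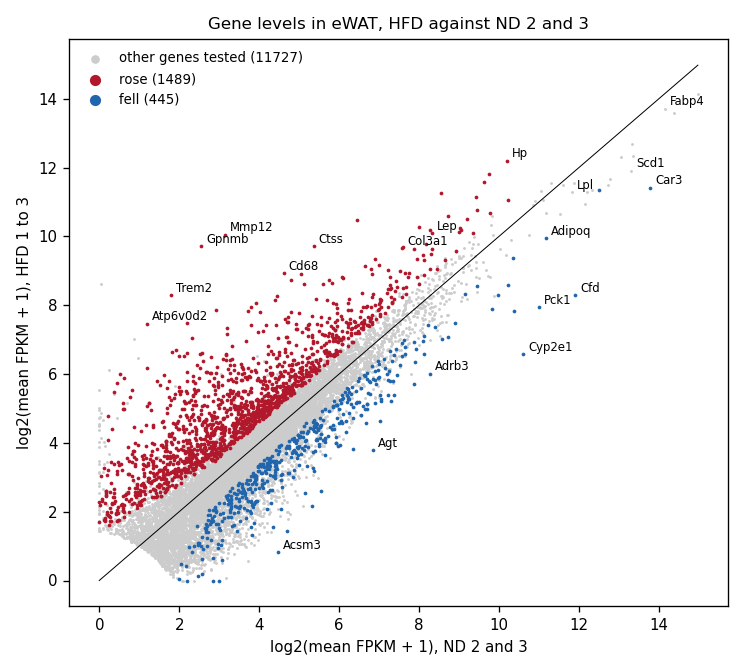
Mean level of each of the 13661 genes in ND 2 and ND 3 (horizontal axis) and in HFD 1 to 3 (vertical axis), both as log2(mean FPKM + 1), with the 1489 genes that rose in red and the 445 that fell in blue. Macrophage genes such as Gpnmb, Mmp12 and Trem2 lie far above the diagonal, and Cfd, Cyp2e1 and Pck1 lie below it at high expression.

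The 12 genes that rose most were Gpnmb, Mmp12, Trem2, Atp6v0d2, Il1rn, Adam8, Tm4sf19, Rgs1, F7, Ubd, Cd300c2 and Slc37a2, and all were also called with ND 1 included. Gpnmb (ENSMUSG00000029816, chr6:49036546-49070929, GRCm38), a membrane glycoprotein of phagocytes, stood at 2.32, 3.75 and 6.01 FPKM in ND 1 to 3 and at 874, 699 and 958 FPKM in HFD 1 to 3. All 3 HFD libraries were far above all 3 ND libraries, and the mean was 173-fold that of ND 2 and ND 3 (log2 fold change 7.18 ± 0.23, limma adjusted p = 0.000645). Mmp12 (ENSMUSG00000049723, chr9:7344381-7369499), the macrophage elastase, stood at 0.0959, 9.699 and 5.95 FPKM in the ND libraries and at 969.8, 828 and 1379 FPKM in the HFD libraries (135-fold, 6.91 ± 0.29, limma adjusted p = 0.000735). Trem2 (ENSMUSG00000023992, chr17:48346401-48354147), a lipid-sensing receptor that marks lipid-associated macrophages, stood at 7.58, 2.301 and 2.61 FPKM against 338, 232 and 365 FPKM (127-fold, 6.47 ± 0.22, limma adjusted p = 0.000645). For both genes the groups did not overlap, and HFD 2 was the lowest of the HFD libraries, as it was for Gpnmb. Atp6v0d2 (chr4:19876841-19922605), a subunit of the proton pump of lysosomes in macrophages and osteoclasts, stood at 2.04, 1.42 and 1.16 FPKM and 165, 164 and 196 FPKM (log2 fold change 6.26 ± 0.14).

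Il1rn, the secreted antagonist of the interleukin-1 receptor, was listed at 0 in ND 1 and stood at 0.7004 and 0.154 FPKM in ND 2 and ND 3 and 56.9, 58.2 and 74.3 FPKM in the HFD libraries (5.51 ± 0.23, limma adjusted p = 0.000735). Adam8, a metalloprotease of myeloid cells, stood at 0.582, 2.14 and 4.98 FPKM and 179, 152 and 202 FPKM (5.36 ± 0.30). Tm4sf19 (5.28), Rgs1 (5.27), a regulator of chemokine receptor signalling, F7 (5.07), coagulation factor VII, and Slc37a2 (4.82), a sugar phosphate exchanger of macrophages, rose as well. Ubd, a ubiquitin-like modifier, rose from 8.25 and 4.802 FPKM in ND 2 and ND 3 to 265, 204 and 229 FPKM, and Cd300c2, an immune receptor of the Cd300 family whose members have similar sequences, from 1.25 and 1.301 FPKM to 78.4, 59.8 and 74.1 FPKM. In each of these genes the groups did not overlap.

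The 12 genes that fell most were Cyp2e1, Acsm3, Cfd, Eci3, Agt, Pck1, Gm17611, Adgrg2, Fam13a, Crygn, Mycl and Mogat1. Cyp2e1 (ENSMUSG00000025479, chr7:140763739-140774987), a cytochrome P450 that oxidizes ethanol, acetone and fatty acids, stood at 1612 and 1492 FPKM in ND 2 and ND 3 and at 106, 111 and 65.3 FPKM in HFD 1 to 3 (16.5-fold lower, log2 fold change -4.07 ± 0.26, limma adjusted p = 0.00118). ND 1 held 102 FPKM, within the HFD range, and with ND 1 included the log2 fold change was -2.76 (limma adjusted p = 0.421). Cfd (ENSMUSG00000061780, chr10:79890853-79892655), adipsin or complement factor D, was high in ND 1 too, unlike most adipocyte genes, at 3048, 4074 and 3626 FPKM in ND 1 to 3 against 337, 349 and 251 FPKM in the HFD libraries. Its groups did not overlap, it fell 12.3-fold (log2 fold change -3.63 ± 0.19, limma adjusted p = 0.000904), and it stayed called with ND 1 included (-3.52, limma adjusted p = 0.0208). Pck1 (ENSMUSG00000027513, chr2:173153048-173159273), which supplies glycerol 3-phosphate for triglyceride through glyceroneogenesis, stood at 77.2, then 2129.8 and 1954 FPKM in the ND libraries and at 266, 246 and 227 FPKM in the HFD libraries (8.29-fold lower than ND 2 and ND 3, -3.05 ± 0.13, limma adjusted p = 0.000735).

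Agt, angiotensinogen, stood at 101, 106 and 121 FPKM in the ND libraries and 15.4, 14.7 and 8.31 FPKM in the HFD libraries, and was called both without ND 1 (-3.09 ± 0.28, limma adjusted p = 0.003) and with it (-3.04, limma adjusted p = 0.0208). Acsm3, a medium-chain acyl-CoA synthetase, fell from 23.2 and 19.3 FPKM to 0.593, 0.8497 and 0.856 FPKM (-3.65 ± 0.20). Eci3, an isomerase of unsaturated fatty acid oxidation (-3.27 ± 0.32), Mogat1, a monoacylglycerol acyltransferase (-2.59 ± 0.18), Fam13a (-2.92 ± 0.29), whose locus is known from studies of fat distribution, and Mycl (-2.79 ± 0.16), a transcription factor of the Myc family, also fell. None of these 5 was called with ND 1 included, when the log2 fold changes were -2.31 for Acsm3 (ND 1 at 0.358 FPKM), -2.34 for Eci3, -1.65 for Mogat1, -1.49 for Fam13a (ND 1 at 1.300 FPKM) and -1.66 for Mycl (ND 1 at 0.927 FPKM). In Acsm3, Mogat1, Fam13a and Mycl ND 1 was below every HFD library. Crygn and Gm17611 were listed at 0 in every HFD library, so no fold is given. In ND 1 to 3 they stood at 14.5, 6.89 and 5.52 FPKM and at 37.2, 7.09 and 6.84 FPKM. Both were thus highest in ND 1, the library with the largest germ cell and epididymis sums. The part of testis and epididymis RNA in these values was not tested. Adgrg2 is an epididymis gene and was highest in ND 3, at 6.43, 15.1 and 63.4 FPKM in the ND libraries against 3.66, 5.28 and 1.403 FPKM. The genes called lower with ND 1 included were Agt, Cfd, Crygn, Asns, Gsta4 and Sqor. Asns, asparagine synthetase, stood at 59.6, 46.1 and 52.4 FPKM in the ND libraries and 18.6, 15.4 and 14.5 FPKM in the HFD libraries, with no overlap (-1.55 ± 0.15 without ND 1, -1.65 with it).

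**Figure D3:**
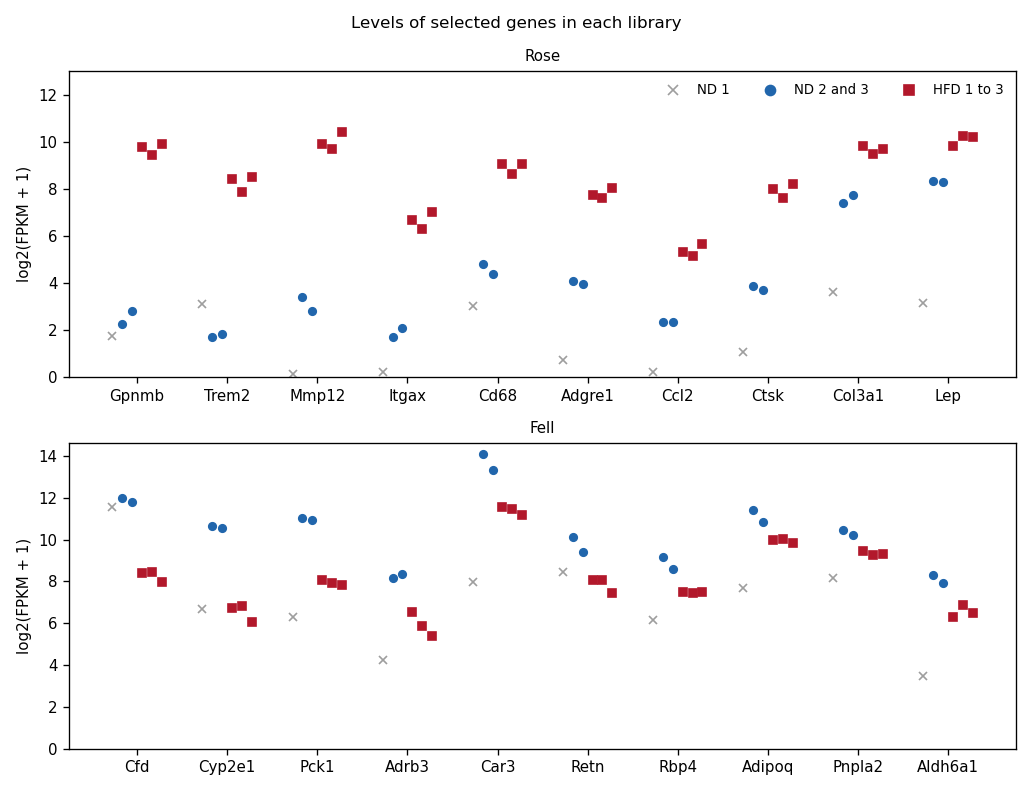
Levels of 10 genes that rose and 10 that fell, as log2(FPKM + 1) in each library, with ND 1 as grey crosses, ND 2 and ND 3 as blue circles and HFD 1 to 3 as red squares. The red squares lie above the blue circles in each gene of the upper panel and below them in each gene of the lower panel, whereas ND 1 lies below the HFD libraries in most adipocyte genes and beside ND 2 and ND 3 in Cfd.

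Of 18 macrophage marker genes tested, 17 rose and 0 fell, with a median log2 fold change of 2.99 against -0.02 over all genes tested. With the replicate block 16 were called, and with ND 1 included 9 were called and the median was 3.79. Their summed FPKM was 1489, 756 and 643 in ND 1 to 3 and 5766, 4523 and 6022 in HFD 1 to 3. Cd68, a lysosomal membrane protein of macrophages, stood at 7.19, 27.04 and 19.9 FPKM and 532, 398 and 532 FPKM (4.32 ± 0.20, limma adjusted p = 0.000777). Adgre1, which encodes the macrophage surface protein F4/80, stood at 0.651, 16.02 and 14.3 FPKM and 213, 195 and 259 FPKM (3.78 ± 0.16). Both markers were higher in each HFD library than in each ND library. Lyz2, the lysozyme of myeloid cells, was the most abundant of the list, at 39.7, 430.3 and 321 FPKM against 2684, 1914 and 2757 FPKM (2.700 ± 0.23). Tyrobp, the signalling adaptor of Trem2 (3.87 ± 0.17), and Laptm5, a lysosomal protein of leukocytes (3.02 ± 0.15), also rose. Aif1 was the exception, at 1355, 8.63 and 51.3 FPKM in the ND libraries and 29.7, 11.8 and 12.8 FPKM in the HFD libraries. Its high values were in ND 1, ND 3 and HFD 1, the libraries with the largest germ cell sums, and its log2 fold change was -0.35 ± 0.80 (limma adjusted p = 0.791). In bulk tissue, more or fewer cells of a type and more or less RNA per cell cannot be told apart.

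Of 20 lipid-associated macrophage genes tested, 17 rose and 0 fell, with a median log2 fold change of 3.24 (13 called with the block, 8 with ND 1 included). Besides Gpnmb, Mmp12, Trem2 and Atp6v0d2, Itgax, which encodes the integrin CD11c, stood at 0.159, 2.23 and 3.28 FPKM against 102, 77.8 and 127 FPKM (4.77 ± 0.25, limma adjusted p = 0.000925). Spp1, the secreted phosphoprotein osteopontin, stood at 0.398, 0.218 and 9.17 FPKM against 66.3, 49.7 and 99.8 FPKM, with a wide spread in the ND group (4.32 ± 0.91, limma adjusted p = 0.0344). Plin2, a coat protein of small lipid droplets, rose from 233 and 275 FPKM to 1299, 1038 and 1336 FPKM (2.26 ± 0.17). The members that did not rise were Lpl, Cd36 and Acp5. Lpl, lipoprotein lipase (205, 4309 and 2990.00 against 2008, 2563 and 2866 FPKM), and Cd36, a fatty acid receptor (43.02, 2230.02 and 1595 against 1865, 2176 and 2254 FPKM), are also highly expressed by adipocytes.

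Markers of tissue-resident macrophages lay on both sides of 0. Of 16 tested, 5 rose, 0 fell, 1 was called lower but changed sign with ND 1, and the median log2 fold change was -0.02 (2 called higher and 1 lower with the block, 3 and 0 without HFD 1 or HFD 3, and a median of 0.71 with ND 1 included). Folr2, the folate receptor beta (1.602 ± 0.19), and Mrc1, the mannose receptor (1.55 ± 0.16), rose. Retnla, a secreted protein of alternatively activated macrophages, stood at 272, 1218 and 672 FPKM against 408, 320.2 and 189.5 FPKM (-1.63 ± 0.41, limma adjusted p = 0.0556).

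Of 24 chemokines and receptors tested, 12 rose and 0 fell, with a median log2 fold change of 1.06 (5 called with the block, 7, 8 and 5 without HFD 1, HFD 2 and HFD 3, 1 with ND 1 included). Ccl2, the monocyte attractant MCP-1, stood at 0.156, 4.04 and 4.08 FPKM in the ND libraries and 39.05, 34.3 and 49.5 FPKM in the HFD libraries (10.1-fold over ND 2 and ND 3, 3.03 ± 0.18, limma adjusted p = 0.00105). The abundant macrophage chemokines Ccl9 (2.95 ± 0.15) and Ccl6 (1.95 ± 0.25) rose. Cxcl9, a T cell attractant, had the lowest log2 fold change of the list, at 23.5 and 15.4 FPKM against 9.48, 11.2 and 10.2 FPKM (-0.83 ± 0.21, limma adjusted p = 0.0556).

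Of 13 inflammatory cytokine and acute-phase genes tested, 7 rose and 0 fell (4 with the block, 3 with ND 1 included). The median log2 fold change was 1.37 without ND 1 and 1.45 with it. Saa3, an acute-phase serum amyloid, stood at 2.73, 4.25 and 2.96 FPKM against 101, 102 and 89.3 FPKM (4.43 ± 0.17, limma adjusted p = 0.000682), and Hp, haptoglobin, at 219, 1181 and 1159 FPKM against 4841, 4824 and 4479.96 FPKM (2.01 ± 0.13). Tnf, tumour necrosis factor, was listed at 0 in ND 1 and stood at 0.207 and 0.167 FPKM in ND 2 and ND 3 and 2.11, 1.91 and 2.19 FPKM in the HFD libraries (1.37 ± 0.32, limma adjusted p = 0.0469). Even in the HFD group Tnf was low, and its log2 fold change understates the ratio of the means because of the pseudocount of 1. Il1b did not reach a mean of 1 FPKM over the 5 libraries and was not tested. Lcn2, lipocalin 2, stood at 1391, 2.08 and 76.2 FPKM in the ND libraries and 24.00, 24.2 and 12.2 FPKM in the HFD libraries, and it is also an epididymal gene (0.39 ± 1.34, limma adjusted p = 0.862).

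Of 16 Toll-like receptor genes and adaptors tested, 11 rose and 0 fell, with a median log2 fold change of 1.39 (6 with the block, 7 without HFD 2, 5 without HFD 3, 4 with ND 1 included). Tlr13, an endosomal receptor of bacterial ribosomal RNA, stood at 0.0425, 0.487 and 0.544 FPKM against 30.3, 32.9 and 41.00 FPKM (4.55 ± 0.18, limma adjusted p = 0.000707), and Unc93b1, which carries these receptors to the endosome, rose from 40.5 and 45.03 FPKM to 183, 155 and 184 FPKM (1.999 ± 0.13). Tlr5, the receptor of flagellin, had a log2 fold change of -0.49 ± 0.25 (limma adjusted p = 0.269). Of 11 genes of MHC class II presentation, 7 rose and 0 fell (1 with the block, 1 without HFD 3 and 1 with ND 1 included). Cd74, the invariant chain, stood at 149, 565 and 472 FPKM against 1406, 1041 and 1159 FPKM (1.21 ± 0.18), and H2-DMb1, a chain of the peptide editor H2-DM, at 12.99, 16.8 and 17.1 FPKM against 89.4, 74.4 and 78.7 FPKM (2.19 ± 0.13). The H2 genes have near-identical relatives, and how fragments were divided among them cannot be seen in FPKM values.

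Of 20 lymphocyte markers 8 were tested, and only Il7r, the receptor of interleukin 7, rose, from 0.0515, 0.632 and 0.926 FPKM in the ND libraries to 41.1, 41.9 and 54.00 FPKM in the HFD libraries (4.71 ± 0.18, limma adjusted p = 0.000707). The median of the list was 0.17 without ND 1 and -0.26 with it. Lck stood between 0.958 and 1.92 FPKM in all 6 libraries. Of 18 interferon-stimulated genes tested 1 rose and 0 fell, with a median log2 fold change of 0.14 (0 called with the block). Among the immune lists the macrophage and lipid-associated macrophage lists had the highest medians, both without ND 1 and with it.

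Lysosome genes, which encode the acid hydrolases, membrane proteins and proton pump of that organelle, were higher in the HFD group. Of 28 tested, 25 rose, 0 fell and all 28 were higher in each HFD library than in ND 2 and ND 3, against 28% of all genes tested. The median log2 fold change was 1.83, and 13 members were called with the block and 5 with ND 1 included. Several members (Ctsb, Ctsd, Ctsk, Lipa and Atp6v0d2) also belong to the lipid-associated macrophage list. Psap, the precursor of the saposins that help degrade sphingolipids, was the most abundant, at 234, 872 and 846 FPKM against 3789.8, 2930.4 and 3969.6 FPKM (2.04 ± 0.18, limma adjusted p = 0.00269). Ctsd, the aspartic protease cathepsin D, stood at 378, 826 and 753 FPKM against 3201, 2561 and 3453 FPKM (1.95 ± 0.18), and Ctsb, cathepsin B, at 36.9, 471 and 379.7 FPKM against 1549, 1288 and 1816 FPKM (1.86 ± 0.20). Ctss, cathepsin S, which trims the invariant chain, rose from 45.9 and 34.3 FPKM to 902, 719 and 913 FPKM (4.37 ± 0.19). The lowest member was Ctsc (0.38 ± 0.12, limma adjusted p = 0.0978). The regulators of lysosome genes Tfeb, at 4.63 and 7.34 FPKM against 19.99, 14.9 and 18.01 FPKM (1.43 ± 0.23), and Mitf, at 6.24 and 5.93 FPKM against 11.8, 12.8 and 16.4 FPKM (1.04 ± 0.18), also rose.

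Transcription factors of the Tfeb and Mitf family are known to bind the E-box CACGTG preceded by T or followed by A. The letters TCACGTG, on either strand, were searched in RefSeq promoters (GRCm38.p6), 250 bases before to 50 bases after each gene's start. They occurred in 7 of the 21 lysosome genes with a promoter entry, and in 3.77% of all 32851 promoters (4.29% of gene symbols, any of whose promoters counted). These 7 genes rose, as did 25 of all 28 members tested. Whether Tfeb or Mitf acted on them was not tested. Stretches of 5 of these promoters are shown because they hold these letters, written 5′ to 3′ on the gene's strand with each match in capitals.

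Ctsa (chr2:164833703-164833822, + strand): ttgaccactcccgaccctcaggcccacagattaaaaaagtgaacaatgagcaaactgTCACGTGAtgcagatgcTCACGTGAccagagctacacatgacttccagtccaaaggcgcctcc

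Ctsd (chr7:142387879-142388077, - strand): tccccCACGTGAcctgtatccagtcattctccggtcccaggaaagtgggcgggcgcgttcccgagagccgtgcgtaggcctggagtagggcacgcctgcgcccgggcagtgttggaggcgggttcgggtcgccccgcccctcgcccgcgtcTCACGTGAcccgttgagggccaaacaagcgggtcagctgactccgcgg

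Lamp1 (chr8:13159059-13159191, + strand): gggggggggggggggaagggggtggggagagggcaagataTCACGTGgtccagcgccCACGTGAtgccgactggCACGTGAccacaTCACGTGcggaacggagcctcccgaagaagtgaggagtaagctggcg

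Glb1 (chr9:114400989-114401108, + strand): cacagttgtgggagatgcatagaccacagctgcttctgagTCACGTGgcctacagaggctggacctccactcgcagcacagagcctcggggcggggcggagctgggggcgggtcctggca

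Gla (chrX:134601136-134601255, - strand): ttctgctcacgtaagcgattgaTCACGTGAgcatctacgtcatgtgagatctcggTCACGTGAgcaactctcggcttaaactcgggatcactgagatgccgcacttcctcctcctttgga

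Lamp1, a protein of the lysosomal membrane, held 4 separate matches, and Ctsa, Ctsd and Gla held 2 each. Lamp1 stood at 148, 298 and 254 FPKM against 647, 606 and 666 FPKM (1.21 ± 0.13). Gla, the alpha-galactosidase, rose from 1.97 and 1.97 FPKM to 20.7, 21.2 and 27.9 FPKM, Ctsa, the protective protein cathepsin A, from 93.6 and 93.4 FPKM to 352, 274 and 362 FPKM, and Glb1, the beta-galactosidase, from 18.8 and 18.1 FPKM to 35.04, 33.5 and 38.7 FPKM. The letters AGGAAGT, a core bound by the myeloid factor Spi1, occurred in 3 of 13 macrophage genes and 2 of 15 lipid-associated macrophage genes with a promoter entry, and in 9.35% of all promoters. Searches for TCACNCCAC (a sterol response element) found 1 of 12 cholesterol synthesis genes (Hmgcs1, which did not rise) and 1.24% of promoters, and those for AGGTCA repeated after a single base of any kind (the direct repeat bound by Pparg) found 0 of 17 adipocyte genes and 0 of 9 lipolysis genes and 0.0396% of promoters. A match is a run of letters and not a measured binding site.

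**Figure D4:**
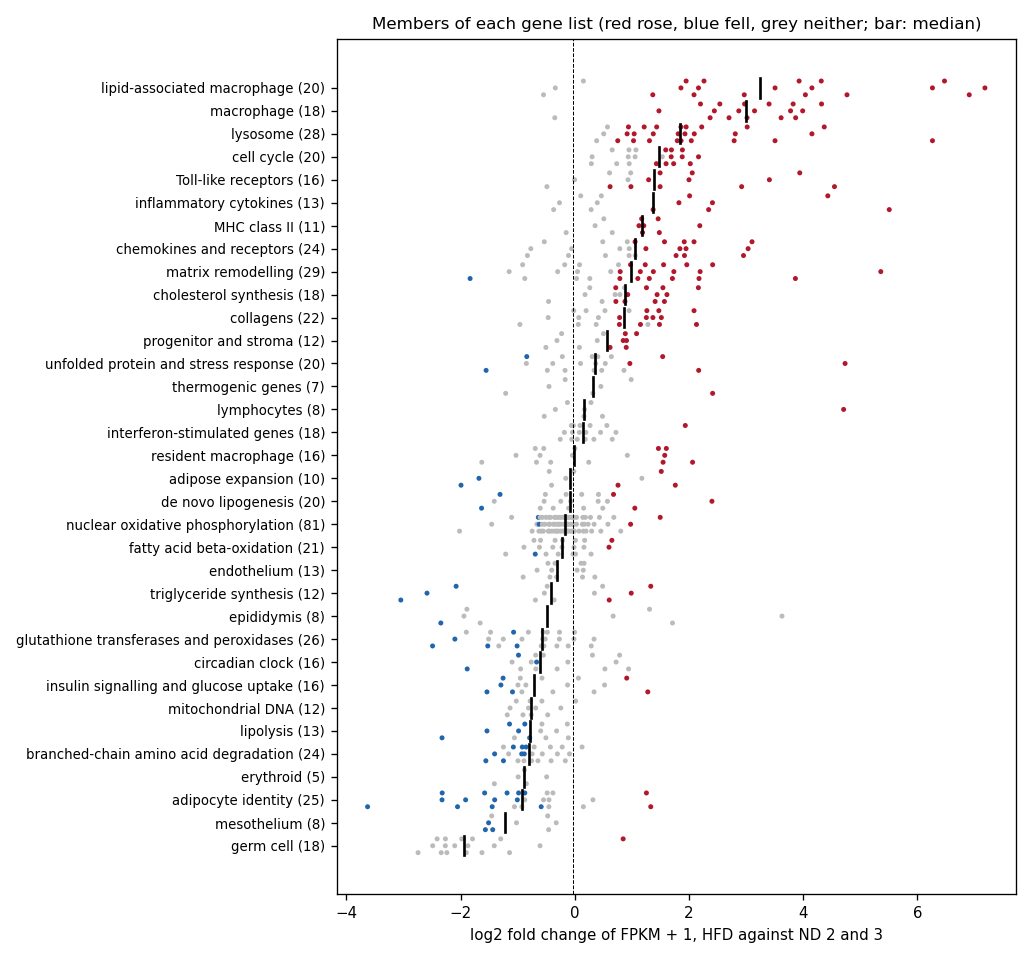
Log2 fold change of each member of 34 gene lists, HFD against ND 2 and ND 3, with members that rose in red, those that fell in blue, others in grey, a black bar at each list's median and a dashed line at the median of all genes tested (-0.02). The number of members tested follows each name, and lists run from the lipid-associated macrophage list (median 3.24) at the top to the germ cell list (-1.94) at the bottom.

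Some of the matrix genes rose. Of 22 collagen genes tested, 11 rose and 0 fell, with a median log2 fold change of 0.87 (4 with the block, 4 without HFD 3, 0 with ND 1 included). Col3a1, the alpha chain of type III collagen, stood at 11.4, 167 and 214 FPKM against 895, 715 and 818 FPKM (4.25-fold over ND 2 and ND 3, 2.09 ± 0.17, limma adjusted p = 0.00221). Col1a1, of type I collagen, stood at 8.303, 34.8 and 57.3 FPKM against 227, 159.8 and 218 FPKM (2.13 ± 0.27), and Col6a3, of the type VI collagen around adipocytes, at 2.65, 31.03 and 22.2 FPKM against 74.6, 61.8 and 72.04 FPKM (1.37 ± 0.18). The basement membrane collagens Col4a1 (0.41 ± 0.21, limma adjusted p = 0.268) and Col4a2 (0.53 ± 0.16, limma adjusted p = 0.0905) were not called.

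Of 29 matrix remodelling genes tested, 17 rose and 1 fell (6 and 1 with the block), and 10, 10 and 9 were called higher without HFD 1, HFD 2 and HFD 3. The median was 0.97 without ND 1. With ND 1 included it was 1.63, and 3 were called higher and 0 lower. Timp1, an inhibitor of metalloproteases, stood at 5.71, 1.48 and 1.25 FPKM against 42.6, 21.98 and 39.3 FPKM (3.86 ± 0.31, limma adjusted p = 0.0021), whereas its relative Timp4 fell from 169 and 128 FPKM to 40.8, 48.6 and 33.5 FPKM (-1.84 ± 0.21, limma adjusted p = 0.00591). Bgn, the proteoglycan biglycan, rose from 153 and 152 FPKM to 407, 338 and 394 FPKM (1.304 ± 0.13). The abundant Sparc (2103 and 2175 against 2456, 2486 and 2761 FPKM, 0.26 ± 0.14) and Dcn, decorin (784 and 596 against 556, 658 and 603 FPKM, -0.18 ± 0.17), and the collagen cross-linking enzyme Lox (64.4 and 54.9 against 47.7, 65.98 and 73.6 FPKM, 0.05 ± 0.21) were not called. Of 12 progenitor and stromal markers 6 rose and 0 fell with a median of 0.56, but 0 were called with the block or without any one of the HFD libraries. With ND 1 included 0 were called and the median was 1.22. Cd248, a stromal surface protein, had the largest change (17.2 and 23.6 against 52.3, 35.3 and 45.4 FPKM, 1.08 ± 0.22). Of 13 endothelial genes 0 rose and 0 fell (median -0.32 without ND 1 and 0.69 with it), and 1 was called lower without keeping its sign when ND 1 was added. That gene was Vegfa, the angiogenic growth factor (8.29, 137 and 161 FPKM against 81.1, 96.4 and 62.2 FPKM).

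The summed FPKM of the cell cycle genes was 317 in ND 1, above the HFD libraries (191, 140 and 153), and 28.2 and 82.5 in ND 2 and ND 3. Of 20 tested 10 rose and 0 fell, and the median log2 fold change was 1.48. With the block 1 was called, 2 with ND 1 included, 16 without ND 3, 9 without ND 2, and 5, 5 and 3 without HFD 1, HFD 2 and HFD 3. Mki67, the proliferation marker, stood at 1.81, 1.25 and 1.603 FPKM against 7.64, 8.41 and 7.78 FPKM (1.88 ± 0.18, limma adjusted p = 0.00345), and Ccna2, cyclin A2, at 2.68, 1.67 and 1.29 FPKM against 10.6, 9.87 and 9.896 FPKM (2.17 ± 0.17). Both were higher in all HFD libraries than in all ND libraries. Aurka, a mitotic kinase, stood at 44.7, 1.704 and 10.3 FPKM against 12.8, 3.82 and 3.73 FPKM, highest in ND 1, HFD 1 and ND 3, where the germ cell sums were also highest. The part of germ cell RNA in these values was not tested.

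Adipocyte genes were lower in the HFD group than in ND 2 and ND 3. Of 25 adipocyte identity genes tested, 15 were called lower without ND 1, 13 of these fell and 2 others rose, with a median log2 fold change of -0.93. With ND 1 included 1 was called lower and the median was -0.19, and with the block 5 were called lower. Leaving out HFD 1, HFD 2 or HFD 3 left 9, 5 and 4 called lower and 0 higher. Adipoq, adiponectin, stood at 202, 2781 and 1826 FPKM in the ND libraries and 1027, 1037 and 908 FPKM in the HFD libraries (2.33-fold lower than ND 2 and ND 3, -1.19 ± 0.21, limma adjusted p = 0.0219). Retn, resistin, stood at 350.02, 1128 and 679 FPKM against 268, 270.1 and 171 FPKM (-1.91 ± 0.31), and Rbp4, the retinol carrier, at 71.1, 568 and 387 FPKM against 177, 172 and 181 FPKM (-1.405 ± 0.18). All 3 adipokines were lower in every HFD library than in ND 2 and ND 3, and in Adipoq and Rbp4 ND 1 lay below the HFD libraries. Car3, a carbonic anhydrase abundant in adipocytes, stood at 252, 17765 and 10419.6 FPKM against 3013, 2836 and 2347 FPKM (-2.32 ± 0.28, limma adjusted p = 0.00684). Plin1, the lipid droplet coat perilipin 1, was called lower without ND 1 (682 and 706 against 343, 314 and 341 FPKM, -1.06 ± 0.11), but ND 1 held 59.1 FPKM and its sign changed with ND 1 (0.12).

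Of the adipogenic transcription factors, Pparg and Cebpa were not called. Pparg stood at 92.5 and 71.5 FPKM in ND 2 and ND 3 and 63.3, 62.7 and 51.8 FPKM in the HFD libraries (-0.46 ± 0.17, limma adjusted p = 0.14), and Cebpa at 128 and 129 FPKM against 175, 138 and 172 FPKM (0.32 ± 0.14, limma adjusted p = 0.209). Fabp4, the fatty acid binding protein and the most abundant of the list, stood at 3089.9, 23308 and 13012 FPKM against 14495, 13621 and 12038 FPKM, and the HFD values overlapped those of ND 3 (-0.38 ± 0.30, limma adjusted p = 0.455). Gpd1, which makes glycerol 3-phosphate from glycolysis, rose from 12.5 and 6.85 FPKM to 33.1, 21.7 and 21.2 FPKM (1.33 ± 0.31, limma adjusted p = 0.0467).

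Lep, leptin, went against the other adipokines. It stood at 7.97, 323 and 317 FPKM in ND 1 to 3 and at 899, 1196 and 1186 FPKM in HFD 1 to 3, 3.42-fold the mean of ND 2 and ND 3 (1.76 ± 0.17, limma adjusted p = 0.00358). ND 2 and ND 3 were close to one another and each HFD library was above both. Of 10 adipose expansion genes tested 3 rose and 2 fell (1 and 2 with the block or without HFD 1, 1 and 1 without HFD 2 or HFD 3), and the median was -0.09 without ND 1 and 1.75 with it, when 0 were called. Fgf13 (1.51 ± 0.32) and Sfrp5, a secreted inhibitor of Wnt signalling (0.76 ± 0.15), rose with Lep. Peg3 (-1.99 ± 0.22) and Nnat (-1.68 ± 0.22), both paternally expressed imprinted genes, fell. Mest, another paternally expressed gene known to rise in expanding fat, stood at 556 and 507 FPKM against 335, 449 and 425 FPKM (-0.41 ± 0.17, limma adjusted p = 0.171), and Npr3, the natriuretic peptide clearance receptor, at 271 and 192 FPKM against 170.2, 227 and 221 FPKM (-0.16 ± 0.21, limma adjusted p = 0.642).

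Lipolysis genes were lower than in ND 2 and ND 3. All 13 tested had negative log2 fold changes without ND 1, 6 fell and 0 rose, and the median was -0.79 (2 called with the block, without HFD 2 or without HFD 3). With ND 1 included 0 were called, the median was -0.10, and 5 of the 13 log2 fold changes were positive, among them those of Plin1 (0.12) and Mgll (0.89). Adrb3, the beta-3 adrenergic receptor that starts lipolysis in adipocytes, stood at 17.8, 282 and 331 FPKM against 91.95, 56.9 and 41.4 FPKM (4.83-fold lower than ND 2 and ND 3, -2.33 ± 0.34, limma adjusted p = 0.012). Pnpla2, the triglyceride lipase ATGL, stood at 284, 1416 and 1189 FPKM against 708, 614 and 646 FPKM (-0.99 ± 0.14), and Lipe, hormone-sensitive lipase, at 278, 714 and 677 FPKM against 417, 354 and 366 FPKM (-0.88 ± 0.13). Both were lower in all 3 HFD libraries than in ND 2 and ND 3, and lowest in ND 1. Pde3b, the phosphodiesterase through which insulin restrains lipolysis, fell from 189 and 136 FPKM to 49.6, 62.4 and 51.97 FPKM (-1.54 ± 0.19). The monoglyceride lipase Mgll had the smallest difference (364 and 338 against 324, 339 and 308 FPKM, -0.12 ± 0.11, limma adjusted p = 0.535).

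Of 20 lipogenic genes tested 3 rose and 2 fell, against 10.9% and 3.26% of all genes tested, with a median of -0.09 (1 and 1 with the block or without HFD 3, 2 and 1 without HFD 1, and 0.74 with 1 called higher when ND 1 was included). Acaca, acetyl-CoA carboxylase 1, fell from 74.2 and 85.8 FPKM to 21.8, 27.5 and 26.2 FPKM (-1.63 ± 0.15, limma adjusted p = 0.00318), whereas Fasn, fatty acid synthase, stood at 333 and 287 FPKM against 393, 319 and 326 FPKM (0.15 ± 0.15, limma adjusted p = 0.54). The stearoyl-CoA desaturase genes differed. Scd1 was called lower without ND 1 (11074 and 9242 against 3389, 4571 and 3545 FPKM, -1.41 ± 0.21) but changed sign with ND 1, which held 306 FPKM, whereas Scd2 rose from 21.7, 23.05 and 36.9 FPKM in the ND libraries to 143, 181 and 154 FPKM and was called with all 6 libraries too (2.401 ± 0.23, 2.54 with ND 1). Scd1 and Scd2 are similar in sequence, and the division of fragments between them rests on the authors' multiread correction.

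Of 12 triglyceride synthesis genes 3 fell and 3 rose, against 3.26% and 10.9% of all genes tested. Those that fell were Pck1, Mogat1 and Gpat3, all called with the block. Those that rose were Dgat2, Agpat2 and Gpd1, of which 0 were called with the block, without HFD 2 or without HFD 3, and 1 without HFD 1. The median was -0.42 without ND 1 and 0.41 with it, when 0 were called. Gpat3, a glycerol 3-phosphate acyltransferase, stood at 62.5 and 61.03 FPKM in ND 2 and ND 3 and 14.3, 14.9 and 12.4 FPKM in the HFD libraries (-2.08 ± 0.13, limma adjusted p = 0.00113). Dgat2, which adds the last acyl chain of triglyceride, stood at 363 and 335 FPKM against 555, 516 and 518 FPKM (0.60 ± 0.11, limma adjusted p = 0.0243).

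Of 16 genes of insulin signalling and glucose uptake 4 fell and 2 rose (1 and 0 with the block), with a median of -0.72. Leaving out HFD 1, HFD 2 or HFD 3 left 4, 3 and 0 called lower and 0 higher. With ND 1 included 0 were called and the median changed sign, to 0.43. Insr, the insulin receptor, stood at 3.51, 33.1 and 32.7 FPKM against 11.5, 15.8 and 12.6 FPKM (-1.26 ± 0.16, limma adjusted p = 0.00877). Slc2a4, the insulin-responsive glucose transporter GLUT4, stood at 2.54, 62.7 and 36.03 FPKM against 25.6, 28.8 and 20.01 FPKM and was not called (-0.93 ± 0.28, limma adjusted p = 0.0881). Akt2, the insulin-responsive kinase of adipocytes, was called lower without ND 1 (199.6 and 229.8 against 121, 119 and 114 FPKM, -0.86 ± 0.11) and changed sign with it, whereas Akt1 rose (37.1 and 52.5 against 91.3, 81.3 and 78.96 FPKM, 0.91 ± 0.18). Ptpn1, a phosphatase that acts on the insulin receptor, rose from 9.76 and 16.2 FPKM to 30.8, 32.4 and 32.8 FPKM (1.28 ± 0.22).

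Of 24 genes of branched-chain amino acid degradation, 13 were called lower and 0 higher without ND 1, 8 of them fell by the stricter rule, and 20 were lower in every HFD library than in ND 2 and ND 3, against 19.2% of all genes tested. The median log2 fold change was -0.81 (2 called with the block or without HFD 3, 4 without HFD 1 or HFD 2). With ND 1 included 0 were called and the median was 0.02. Aldh6a1, the last dehydrogenase of valine breakdown, stood at 9.99, 319 and 239 FPKM against 76.6, 117 and 89.7 FPKM (-1.56 ± 0.23, limma adjusted p = 0.0121). Pccb, a subunit of propionyl-CoA carboxylase, stood at 125 and 127 FPKM against 60.3, 59.4 and 57.9 FPKM (-1.08 ± 0.10).

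Of 21 genes of mitochondrial fatty acid oxidation tested 2 rose and 1 fell, near the 10.9% and 3.26% of all genes tested. The median was -0.23, and 0 were called with the block or without any one of the HFD libraries. With ND 1 included 0 were called and the median was 0.53. Cpt1a, the entry step of mitochondrial fatty acid oxidation, rose from 39.4 and 48.3 FPKM to 62.7, 69.3 and 75.4 FPKM (0.65 ± 0.15, limma adjusted p = 0.042), and Ppargc1a, a coactivator of mitochondrial genes, stood at 2.98 and 2.72 FPKM against 0.677, 0.822 and 0.499 FPKM (-1.21 ± 0.31, limma adjusted p = 0.0565). Of 81 nuclear genes of oxidative phosphorylation 2 rose and 2 fell (median -0.17), and of 12 mitochondrial DNA genes 0 rose and 0 fell (median -0.77). Of all genes tested 10.9% rose and 3.26% fell. With the block 0 genes of either list were called. With ND 1 included 0 were called in both lists, and the medians were -0.49 for the nuclear genes and 0.19 for the mitochondrial DNA genes. With quantile normalization 2 nuclear genes were called higher and 13 lower, and the median of the mitochondrial DNA genes was -0.0288, with 2 called lower. The summed FPKM of the mitochondrial DNA genes was 148300 in ND 2 and 81420 in ND 3 against 60224 to 74227 in the HFD libraries, so ND 2 held most of that difference. Without ND 3, 10 of the mitochondrial DNA genes were called lower, and of the nuclear genes 18 lower and 4 higher. Without ND 2 the mitochondrial DNA genes had 0 calls and the nuclear genes 1 lower and 2 higher, and without any one of the HFD libraries 0 genes of either list were called. Ucp1, the uncoupling protein of thermogenic adipocytes, stood at 4.43, 0.0395 and 0.0773 FPKM against 0.475, 0.0322 and 5.05 FPKM and varied more within the groups than between them (0.99 ± 0.86, limma adjusted p = 0.498).

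**Figure D5:**
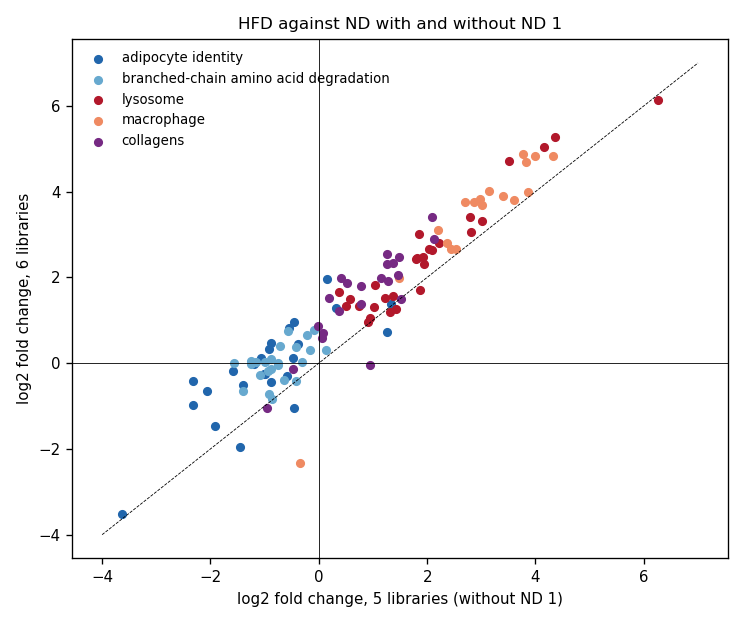
Log2 fold change of members of 5 lists without ND 1 (horizontal axis) and with it (vertical axis), HFD against ND, with the dashed line marking equal values. Macrophage and lysosome genes lie in the upper right under both choices, apart from Aif1, whereas adipocyte and branched-chain amino acid genes below 0 without ND 1 lie on both sides of 0 with it.

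Cholesterol synthesis genes were higher in the HFD group. Of 18 tested 11 rose and 0 fell, with a median of 0.87 without ND 1 and 0.86 with it (3 with the block, without HFD 2 or without HFD 3, 7 without HFD 1 or ND 2, 2 with ND 1 included). The summed FPKM of the list was 477, 429 and 450 in ND 1 to 3 and 705, 690 and 704 in HFD 1 to 3, so the groups did not overlap. Insig1, which restrains the processing of the sterol-regulated factor Srebf2, was the most abundant of those that rose (69.6 and 62.5 against 206, 194 and 182 FPKM, 1.54 ± 0.12, limma adjusted p = 0.00178). Dhcr7, the last step of cholesterol synthesis, had the largest rise (3.303 and 5.94 against 18.9, 20.9 and 32.7 FPKM, 2.16 ± 0.32). Hmgcs1, which makes HMG-CoA, was the only member with a negative log2 fold change (161 and 158 against 122, 113 and 112 FPKM, -0.46 ± 0.10, limma adjusted p = 0.0417). Of 20 genes of the unfolded protein and stress response 4 rose and 2 fell, against 10.9% and 3.26% of all genes tested (1 and 1 with the block or without any one of the HFD libraries). The median was 0.35 without ND 1. With ND 1 included it was 0.15, and 1 was called higher and 1 lower. Hspa5, the chaperone BiP of the endoplasmic reticulum, stood at 199, 126 and 189 FPKM against 319, 298 and 288 FPKM (0.96 ± 0.19, limma adjusted p = 0.0306). Atf3, an inducible transcription factor, had the largest rise of that list (4.55 and 3.47 against 129.95, 115 and 151 FPKM, 4.73 ± 0.17), and Asns, described above, the largest fall. The letters TGATGNAA, the start of the amino acid response element, occurred in 6 of the 18 members with a promoter entry, among them Asns and Atf3, which moved in opposite directions, and in 3.97% of all promoters.

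Of 26 glutathione transferase and peroxidase genes tested 5 fell and 0 rose, against 3.26% and 10.9% of all genes tested. The median was -0.58 without ND 1 and -0.98 with it, and 3 were called with the block or without HFD 3. Gsta4, a transferase that conjugates lipid aldehydes, was called with all 6 libraries. It stood at 41.2, 22.4 and 22.4 FPKM in the ND libraries and 3.64, 2.42 and 3.54 FPKM in the HFD libraries, with no overlap (-2.49 ± 0.19 without ND 1 and -2.78 with it). Transferase genes of a class resemble one another, so single members are uncertain.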

How the data were processed

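RNA-seq libraries were made from mRNA of the eWAT with the TruSeq RNA kit, which does not mark strand, so a gene and its antisense partner cannot be told apart. Before alignment the authors removed reads with many skipped bases or low quality. Alignment used STAR (version 2.4.0 in the submitters' processing notes, next to CASAVA 1.8.2) against Ensembl release 72, and the authors deposited FPKM values per gene from Cufflinks 2.1.1, for which noncoding regions were masked and corrections for multireads and fragment bias applied. The human genome is named in the methods, whereas all identifiers in the table are mouse identifiers. Since FPKM carries no counting error, precision was taken from how far libraries of a group differed.

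Columns were matched to samples by their names. GENCODE mouse release M21 (GRCm38) named 22671 of 23474 identifiers. The HFD and ND libraries were fitted on the log2(FPKM + 1) scale in limma 3.58.1 (R 4.3.3), using lmFit and then eBayes with its trend option, for genes averaging 1 FPKM or more in the libraries of the fit, with 6 libraries and with the 5 libraries other than ND 1. A gene was called when its p-value, adjusted by Benjamini-Hochberg, was under 0.05 and it changed at least 1.5-fold. The smallest two-sided p of an exact permutation test is 0.1 for 3 against 3 libraries and 0.2 for 3 against 2, so none is given for single genes. The fits were tested on simulated data with 100 genes changed 4-fold and 100 changed 2-fold. The fit with 5 libraries called 73 of the 4-fold and 24 of the 2-fold changes, and 7 unchanged genes, so it missed most 2-fold changes. The fit with 6 libraries called 89, 58 and 7. Its ND 1 was simulated from the levels and spread of the other libraries, so that result does not hold for the real ND 1.

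Same-numbered HFD and ND libraries had correlations of their deviations from the group means of 0.547, 0.342 and 0.122. Each was over 0.1, so a block by number was fitted as an alternative. The pairing is an assumption, since no source names anything shared by a number. ND 2 correlated more with HFD 3 (0.626) than with HFD 2 (0.342), and ND 1 and HFD 1 (0.547) both held germ cell RNA.

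The comparison and the gene lists were chosen with earlier results of these data known, and the lists of oxidative phosphorylation, mitochondrial DNA and glutathione genes were rules on gene symbols. Genes are named that changed most, that were the extreme or most abundant members of a list, or that belonged to a panel of adipose genes, and not every gene of this rule is named, since some are not reported here. Aurka, Ctsa, Fgf13, Gla, Glb1, Gpat3, Lamp1, Lck, Lcn2, Mitf, Mki67, Pccb, Plin2, Sqor and Tfeb fall outside it and were chosen after their values were seen. Depth was estimated as the fragment number that brought low FPKM values times transcript length nearest to whole numbers, and is approximate. Promoters came from RefSeq (GRCm38.p6). Tables were handled with pandas 2.3.3, numpy 2.4.6 and scipy 1.17.1 in python 3.11.15, and figures drawn with matplotlib 3.10.9. Alternatives were a pseudocount of 0.1, no filter, a minimum mean of 5 FPKM, median-of-ratios and quantile scaling, eBayes without trend, all libraries of the series in the fit, the replicate block, array weights, no fold change minimum and each library left out.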

Additional observations from a re-analysis of the deposited data

How the results depend on the processing

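The number of calls depended on ND 1 and on the number of libraries. Without ND 1, leaving out each other library in turn gave 466 to 2000 upregulated and 78 to 903 downregulated genes, lowest without HFD 3 (466 and 78), then HFD 2 (704 and 171) and HFD 1 (797 and 218). The lowered count without an HFD library came with 2 libraries against 2. Leaving out ND 2 or ND 3 as well as ND 1 left 1 ND library, which was assumed to vary as the HFD libraries do. The replicate block gave 435 and 66 and array weights 320 downregulated genes, and the other settings kept both counts within 1.5 times. With all 6 libraries, the calls were 121 higher at a pseudocount of 0.1, 3 lower with median-of-ratios scaling, 1028 higher and 103 lower with all libraries of the series in the fit, 2114 and 3943 with array weights, and 0 and 0 with the block. Leaving out single libraries gave 0 to 1505 higher and 0 to 593 lower, where 1505 and 593 were those without ND 1, 24 and 0 without ND 2, 23 and 0 without ND 3, and 0 and 0 without HFD 1, HFD 2 or HFD 3 (843 to 982 at an unadjusted p under 0.05). Median-of-ratios scaling moved the median log2 fold change of all genes from 0.07 to -0.12 with 6 libraries and from -0.02 to -0.08 without ND 1. The causes were not tested. Statements without ND 1 rest on 2 ND libraries, and FPKM values hold no count from which a low gene's error could be taken.

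Calls per list under the block, the scalings and each library left out were added after seeing the data. Of 34 list medians without ND 1, all kept their sign under median-of-ratios scaling, quantile normalization and a pseudocount of 0.1, and 23 kept it when ND 1 was added. With single libraries left out, 31 of 35 kept it without ND 3, 33 without ND 2, 32 without HFD 3 and 35 without HFD 1 or HFD 2. The exceptions were lipogenesis (0.0448), lymphocytes (-0.1015), germ cell (0.0405) and epididymis (1.40) without ND 3, adipose expansion (0.0601) and nuclear oxidative phosphorylation (0.0325) without ND 2, and thermogenic (-0.20), resident macrophage (0.0241) and epididymis genes (0.21) without HFD 3. Of the 114 genes given with a log2 fold change, 77 kept their direction and side of the threshold with the replicate block, 105 with median-of-ratios scaling, 99 with quantile normalization, 81 of 113 without HFD 3 and 41 with ND 1 added. Those that changed sign with ND 1 added were Akt2 (0.10), Cxcl9 (0.28), Dcn (1.51), Fabp4 (0.45), Hmgcs1 (0.62), Lcn2 (-1.77), Mest (1.93), Mgll (0.89), Npr3 (1.66), Plin1 (0.12), Pparg (0.96), Scd1 (0.27), Slc2a4 (0.33) and Tlr5 (0.21). Lox, which was near 0, was at -0.0174 with median-of-ratios scaling, -0.0747 with quantile normalization and -0.0816 (without HFD 3) to 0.2251 (without HFD 1) with single libraries left out. Under quantile normalization Fabp4 was at 0.14 and Fasn at -0.0219. The range from leaving out ND 2 to leaving out ND 3 was -1.57 to 0.87 for Aif1, 0.0194 to -0.376 for Dcn, 0.0364 to -0.8045 for Fabp4, -1.93 to 2.72 for Lcn2 and 0.0872 to -0.4063 for Npr3. Of these genes Akt2, Plin1 and Scd1 had been called.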

Other observations

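Of 8 mesothelial genes tested, which mark the lining cells of the fat pad, 3 fell and 0 rose. The median log2 fold change was -1.23 without ND 1 and -1.20 with it, when 0 were called. Upk3b, a uroplakin of mesothelial cells, stood at 3.74, 11.6 and 10.99 FPKM in the ND libraries and 2.46, 2.37 and 5.15 FPKM in the HFD libraries (-1.57 ± 0.31, limma adjusted p = 0.0297), and 0 members were called with the block, without HFD 1 or without HFD 2, and 1 without HFD 3. The summed FPKM of the list was 272, 32.4 and 111 in ND 1 to 3 and 20.2, 38.1 and 18 in HFD 1 to 3, so ND 2 was below HFD 2. The keratins Krt8 and Krt18 of this list are also expressed in epididymal epithelium and stood at 73.1, 0.534 and 43.5 FPKM and 119, 1.06 and 22.6 FPKM in ND 1 to 3, so their ND values ranged from below to above the HFD values.

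Of 16 clock genes tested 3 fell and 0 rose, against 3.26% and 10.9% of all genes tested (0 with the block, without HFD 1 or without HFD 3, and 1 without HFD 2). The median was -0.61 without ND 1 and -0.09 with it, when 17 were tested and 0 called. Nr1d1, a repressor of the clock, stood at 40.4 and 58.4 FPKM against 27.1, 25.5 and 15.6 FPKM (-1.100 ± 0.29, limma adjusted p = 0.0641). The time of day of sampling was not recorded in the labels.

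Among the other lists, the 5 erythroid genes summed to 981 and 570 FPKM in ND 2 and ND 3 and to 303, 287 and 481 FPKM in the HFD libraries, and 0 were called. Of 18 germ cell genes tested 1 was called higher (Sycp3, 54.05, 27.2 and 19.01 FPKM in ND 1 to 3 against 41.5, 38.6 and 45.2 FPKM, so that ND 1 was above all HFD libraries) and 0 lower. Of 8 epididymis genes 1 fell (Gpx5, 6364, 4.14 and 4.91 FPKM in the ND libraries, and 0, 0.268 and 0 FPKM in the HFD libraries), and Crisp1 stood at 0.149, 1172 and 0.531 FPKM in HFD 1 to 3. Neither the Sycp3 nor the Gpx5 call was made with the block or with ND 1 included, and Sycp3 was not called with median-of-ratios scaling or quantile normalization. Of 10 skeletal muscle genes only Pvalb was tested without ND 1 (1.53, 0.392 and 0.0781 FPKM against 10.8, 8.25 and 10.7 FPKM), and it met the minimum through the HFD group. With ND 1 included 3 were tested and their median was -0.95. Of 7 thermogenic genes tested 0 were called with the block, and the median was 0.32 without ND 1, -0.14 with it and -0.20 without HFD 3. Otop1, a proton channel, met the minimum through the HFD group (0.409, 0.152 and 0.104 FPKM against 4.29, 4.605 and 6.298 FPKM, 2.41 ± 0.28, limma adjusted p = 0.00592).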
